A study of Mus musculus with 12 samples.

Results

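The Tox family of high mobility group (HMG) box proteins holds 4 genes, Tox, Tox2, Tox3 and Tox4, of the 55450 genes counted in sorted CD4+ T cells of mouse thymus. All 4 were found by symbol. They were chosen by their measured transcript levels in these libraries, for the opposite differences of family members and the large difference of Tox2, so their levels and differences are given as a description with no test. RNA was sequenced in 12 libraries, 4 from each of 3 sorted populations. Eos+ Tregs were regulatory T cells sorted as CD4+Foxp3+Ccr6+Cxcr4+, Eos- Tregs were sorted as CD4+Foxp3+Ccr6-Cxcr4-, and Tconv, the conventional T cells, as CD4+Foxp3-. Eos, the product of Ikzf4, is an Ikaros family transcription factor. All 3 groups came from mice carrying CD4-Cre, a recombinase driven in T cells by Cd4 regulatory sequence, and Foxp3-GFP, a fluorescent reporter of the Treg factor Foxp3. No age is stated in the labels, and they do not say whether the 4 replicates of a group were separate animals, so the spread behind each p-value may be technical. Libraries are numbered 1 to 4 in each group, and the same numbers deviated together across groups.

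Tox family proteins bind DNA through a single HMG box and act in the nucleus on chromatin and transcription. Tox is needed for the development of CD4 T cells in the thymus and is known for maintaining exhausted CD8 T cells, where it is induced through calcineurin and NFAT. Tox2 is known from follicular helper T cells, where it acts with Bcl6, and from natural killer cells. Tox4 is a widely expressed subunit of a nuclear phosphatase complex with PNUTS, Wdr82 and protein phosphatase 1, and Tox3 has been studied mainly in neurons and in breast epithelium.

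Tox2 lies on chromosome 2 from 163203125 to 163324170 on the plus strand (mm10, ENSMUSG00000074607.11) and has 5 annotated transcripts, all coding, that begin at several starts. Because Tox2 had the largest fold difference of the 4 members between the Treg groups, the sequence upstream of its first start and of a downstream start is shown, taken from the RefSeq promoter windows of GRCm38.p6 (the same build as mm10) and ending before the first annotated start nearby. Capitals mark GC boxes (GGGCGG or CCGCCC) in the upstream stretch, and in the downstream stretch a match to the TCF and LEF core (CTTTGAT or ATCAAAG) and to the NFAT core (GGAAAA or TTTTCC).
Tox2 upstream start, chr2:163202877-163203057, plus strand: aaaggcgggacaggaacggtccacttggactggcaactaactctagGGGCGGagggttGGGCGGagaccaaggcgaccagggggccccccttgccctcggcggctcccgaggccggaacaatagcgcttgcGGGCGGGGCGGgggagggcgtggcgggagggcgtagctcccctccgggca
Tox2 downstream start, chr2:163225203-163225362, plus strand: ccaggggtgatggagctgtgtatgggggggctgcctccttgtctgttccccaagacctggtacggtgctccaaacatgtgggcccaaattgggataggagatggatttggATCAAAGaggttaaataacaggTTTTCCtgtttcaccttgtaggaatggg

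The 2 windows differed in base composition. The upstream window of 300 bases had 77.0% GC and 38 CpG, against a median of 52.7% GC and 7 CpG over 32851 mouse promoter windows of the same length, and the downstream window had 53.3% GC and 7 CpG. GC boxes matched at 7 positions of the upstream window on either strand, of which 1 pair overlapped by a base in the printed stretch, and at 1 position of the downstream window. Of all windows, 35.7% held a GC box, 23.4% the NFAT core and 3.73% the TCF and LEF core. Further motifs searched on both strands were the TATA box (TATAAA, in 13.6% of windows), a forkhead motif (TGTTTAC, 3.65%), the Ikaros core (TGGGAA, 25.6%) and an E box (CACCTG, 20.2%). The downstream window held 1 TATAAA, 31 bases before the RefSeq start, and the upstream window none. These matches describe letters in the sequence and do not show a bound factor, and the deposited values, 1 per gene, do not tell the Tox2 starts apart.

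Tox lies on chromosome 4 from 6686353 to 6991557 on the minus strand (ENSMUSG00000041272.11), Tox3 on chromosome 8 from 90247040 to 90348343 on the minus strand (ENSMUSG00000043668.13) and Tox4 on chromosome 14 from 52279146 to 52296401 on the plus strand (ENSMUSG00000016831.12), all in mm10. Reads could be told apart between members, since they shared 0 stretches of 50 bases with each other. Tox2 and Tox3 shared none with any other gene, and Tox shared 2.83% of its stretches, nearly all with the antisense gene Gm11802, which averaged 0.54 counts per library. Tox4 shared 1409 of 7040 stretches (20.01%), of which 839 were with Mettl3, 447 with the processed pseudogene Gm5828 on chromosome 1 and 109 with Rab2b. Mettl3 and Rab2b lie on the opposite strand, where 933 exon bases of Tox4 lie in exons of Mettl3 and 195 in exons of Rab2b. Gm5828 averaged 1.65 expected counts per library, and how reads that match both it and Tox4 were divided was not tested. The library kit does not mark strand, and with the shared pseudogene sequence the Tox4 values are less certain than those of the other members. Mettl3, an RNA methyltransferase, ranged from 54.1 to 70.7 CPM (counts scaled to the library total) and Rab2b, a small GTPase, from 27.7 to 38.4 CPM over the 12 libraries.

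The libraries held 23.9 to 37.9 M expected counts, which are estimated read counts per gene. Ccr6, a sort marker, ranged from 227 to 263 CPM in Eos+ Tregs and 10.4 to 19.7 in Eos- Tregs, and Ikzf4 from 292 to 334, 155 to 181 and 22.7 to 27.4 CPM in Eos+ Tregs, Eos- Tregs and Tconv. The other surface marker of the sort, Cxcr4, overlapped between the Treg groups, at 25.2 to 52.9 and 22.7 to 42.3 CPM. Foxp3, whose exons overlap those of other expressed genes, was 55.0 (Eos+) and 53.3 CPM (Eos-) in the Treg libraries numbered 1, against 485 to 862 CPM in the other Treg libraries and at most 3.42 in Tconv. On the second principal component all 3 libraries numbered 1 lay below the rest of their group, at -19.4 against 60.7 to 84.8 in Eos- Tregs, -54.3 against -9.2 to 3.8 in Eos+ Tregs and -56.6 against -27.1 to -23.9 in Tconv. Group means and differences of the members are therefore given with and without these libraries where that moves them by over 1.5 times.

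Per length, Tox and Tox4 were the abundant members in each group, with Tox2 below them and Tox3 close to 0. In TPM, transcript abundance scaled to the library and to the length of all exons of a gene, the mean of Tox was 103 ± 6.06 in Eos+ Tregs and 132 ± 17.0 in the Eos- population, and it was 119 ± 14.3 in Tconv (SD, n = 4). Tox4 averaged 96.9 ± 10.4, 108 ± 11.5 and 122 ± 3.06 TPM in the same order, so that Tox and Tox4 lay close together. Tox2 averaged 28.7 ± 5.51, 1.91 ± 2.15 and 10.5 ± 4.79 TPM, below both in every library, and 0.847 ± 0.427 TPM in Eos- Tregs without replicate 1 (SD, n = 3). Tox3 was at most 1.37 TPM in any library. Tox2 was itself close to 0 in most Eos- Treg libraries, and in replicate 3 its 0.417 TPM lay below the 0.74 TPM of Tox3. Among all 55450 genes Tox ranked between 1325 and 2195 from the highest TPM and Tox4 between 1580 and 2322, while Tox2 ranked between 4983 and 6335 in Eos+ Tregs and between 10014 and 15019 in Eos- Tregs. The length used sets the order of Tox and Tox4: scaled by the longest transcript, Tox averaged 149 TPM and Tox4 94.9 TPM in Eos+ Tregs.

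The make-up of the family followed from this. Tox2 made up 15.9%, 13.0%, 10.3% and 11.2% of the summed family TPM in Eos+ Treg libraries 1 to 4. It made up 2.21%, 0.326%, 0.159% and 0.596% in Eos- Tregs, and 5.68%, 4.85%, 1.77% and 4.1% in Tconv. By the length of all exons, the Tox2 share was above 10% in each Eos+ Treg library and under 6% in each of the others. These shares depend on the length used. Scaled by the longest transcript, Tox2 took 11.9%, 9.56%, 7.65% and 8.12% in Eos+ Tregs. It then took at most 1.59% in Eos- Tregs and 4.15% in Tconv, and Tox averaged 55.4%, 63.8% and 57.2% in the 3 groups. The shares that follow again use all exons. Tox took 45.0% ± 2.68, 54.4% ± 3.14 and 47.2% ± 2.54 of the family in Eos+ Tregs, Eos- Tregs and Tconv, and Tox4 42.3% ± 3.04, 44.6% ± 2.31 and 48.4% ± 3.68 (SD, n = 4).

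**Figure D1:**
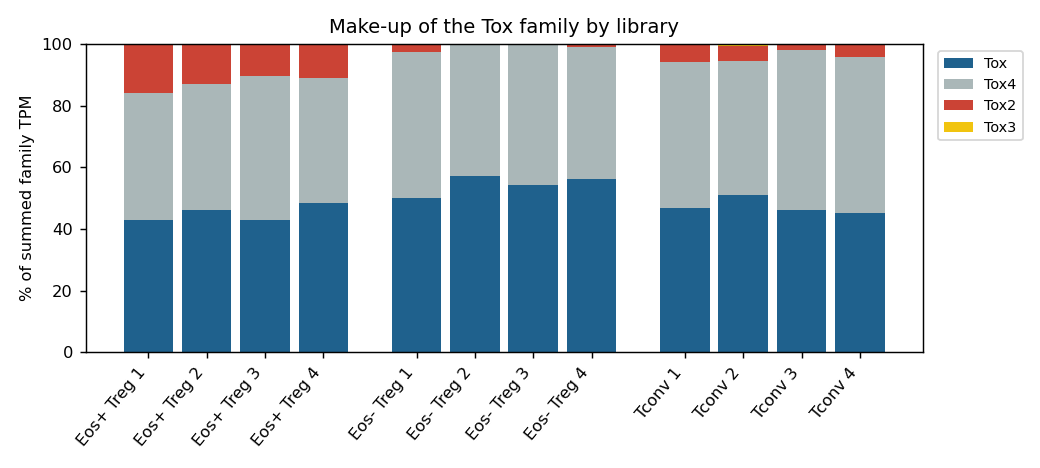
Share of the summed TPM (exon-union length) taken by each of the 4 Tox family genes, as stacked bars in %, 1 bar per library and 4 libraries per group. Tox2 took 10.3% to 15.9% in Eos+ Tregs, against 0.159% to 2.21% in Eos- Tregs, with Tconv at 1.77% to 5.68%, and Tox3 is too low to see.

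Leaving aside Tox3, which was near the limit of detection, Tox2 had the largest log2 difference in each comparison. The Tox2 mean was highest in Eos+ Tregs, intermediate in Tconv and lowest, at few counts, in Eos- Tregs. Eos+ Treg replicates 1 to 4 had 36.2, 31.3, 24.2 and 24.5 CPM (29.1 ± 5.78, SD, n = 4), where CPM are scaled by TMM library factors. The Eos- Treg libraries had 5.07, 0.855, 0.415 and 1.32 CPM (1.91 ± 2.13, or 0.863 ± 0.453 without replicate 1, n = 3), and the Tconv libraries 14.5, 12.7, 4.1 and 10.3 CPM (10.4 ± 4.56). All Eos+ Treg libraries were above all others, whereas Tconv and Eos- Tregs overlapped, since Eos- Treg replicate 1, at 5.07 CPM, was above Tconv replicate 3, at 4.1 CPM. Behind these levels stood 3913, 210 and 1329 rounded counts in Eos+ Tregs, Eos- Tregs and Tconv. The Eos- Treg libraries held 122, 30, 12 and 46 of them, and in replicate 3 Tox3 had more counts, 21. The size of each Tox2 difference from Eos- Tregs thus rests on few counts, most of them from replicate 1.

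In the edgeR fit over 12 libraries, Tox2 was 15.5-fold higher in Eos+ than in Eos- Tregs, a log2 difference of 3.95, which placed it 207th from the highest of 15362 genes tested. Between same-numbered libraries the log2 CPM differences were 2.82, 5.1, 5.67 and 4.15 for numbers 1 to 4, a mean of 4.44 with an SD of 1.24. Number 1 gave the smallest difference, and all 4 had the same direction. Without Eos- Treg replicate 1 the fitted log2 difference was 5.04, and without the libraries numbered 1 it was 4.92. Against Tconv, Tox2 was 2.79-fold higher in Eos+ Tregs (log2 1.48), higher in each of the 4 numbers. In Eos- Tregs it was 5.54-fold lower than in Tconv (log2 -2.47), lower in each of the 4 numbers, and the log2 difference was -3.57 without Eos- Treg replicate 1 and -3.37 without the libraries numbered 1. Both comparisons with Tconv share the same Tconv libraries.

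Tox itself moved within a narrow range and in another order. It was 218, 249, 226 and 238 CPM in Eos+ Tregs (233 ± 13.3, SD, n = 4). The Eos- Treg libraries had 256, 336, 317 and 278 CPM (297 ± 36.2), and Tconv had 268, 299, 239 and 254 CPM (265 ± 25.5). Eos- Tregs did not overlap with Eos+ Tregs, whose highest library, at 249 CPM, was below the lowest Eos- Treg library, at 256 CPM, while Tconv overlapped with both. Tox was 1.28-fold lower in Eos+ than in Eos- Tregs (log2 -0.35), and the same-numbered differences were -0.23, -0.43, -0.49 and -0.22, so that all 4 numbers had Tox lower and Tox2 higher in Eos+ Tregs. Of all genes tested, 54.4% had a smaller absolute log2 difference than Tox in that comparison, against 98.4% for Tox2. Against Tconv, the Tox log2 difference was -0.19 in Eos+ Tregs, lower in 4 of 4 numbers, and 0.16 in Eos- Tregs, higher in 3 of 4. In bulk RNA, fewer cells that carry a transcript and less of it per cell cannot be told apart, for any member.

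**Figure D2:**
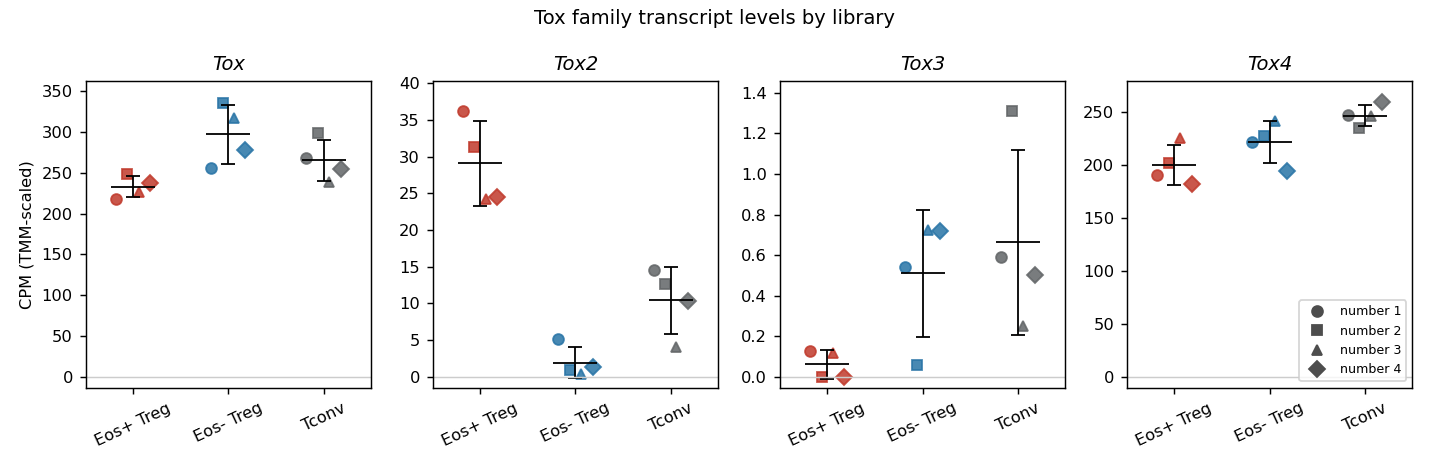
TMM-scaled CPM of each Tox family gene (vertical axes differ between panels) by group, with 1 point per library, its shape giving the library number, and a bar with whiskers for mean and SD (n = 4). The Eos+ Treg libraries were above all others for Tox2 and below all Eos- Treg libraries for Tox, and Tox3 stayed at or under 1.31 CPM.

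Tox4, the phosphatase complex subunit, was lowest in Eos+ Tregs by a small margin. It was 190.4, 202, 226 and 182 CPM in Eos+ Tregs (200.0 ± 19.1, SD, n = 4). It reached 222, 228, 242 and 195 CPM in Eos- Tregs (222 ± 19.7) and 248, 235, 247 and 259.9 CPM in the Tconv libraries (247 ± 10.3). The Eos+ Treg and Tconv libraries did not overlap, whereas Eos- Tregs overlapped with both. The log2 differences were -0.15 for Eos+ against Eos- Tregs, -0.31 for Eos+ Tregs against Tconv and -0.16 for Eos- Tregs against Tconv, each lower in 4 of 4 numbers.

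Tox3 was near the limit of detection. Eos+ Tregs held 8 rounded counts over 4 libraries, 2 of which were at 0, with CPM of 0.125, 0, 0.117 and 0. Eos- Tregs held 61 counts (0.54, 0.057, 0.726 and 0.718 CPM) and Tconv 82 (0.588, 1.31, 0.249 and 0.5 CPM). The Eos+ Treg libraries were below all Tconv libraries but overlapped with Eos- Tregs through Eos- Treg replicate 2. For scale, 3 counts over a whole group correspond to 0.0222 to 0.0244 CPM. Tox3 passed the filter on low counts through Eos- Tregs and Tconv. Its fitted log2 differences for Eos+ Tregs were -3.01 against Eos- Tregs and -3.38 against Tconv (-4.03 without the libraries numbered 1). They rest on 8 counts in Eos+ Tregs, and nothing is read from their size. Between Eos- Tregs and Tconv the log2 difference was -0.37, and it was 0.19 without Tconv replicate 2.

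**Figure D3:**
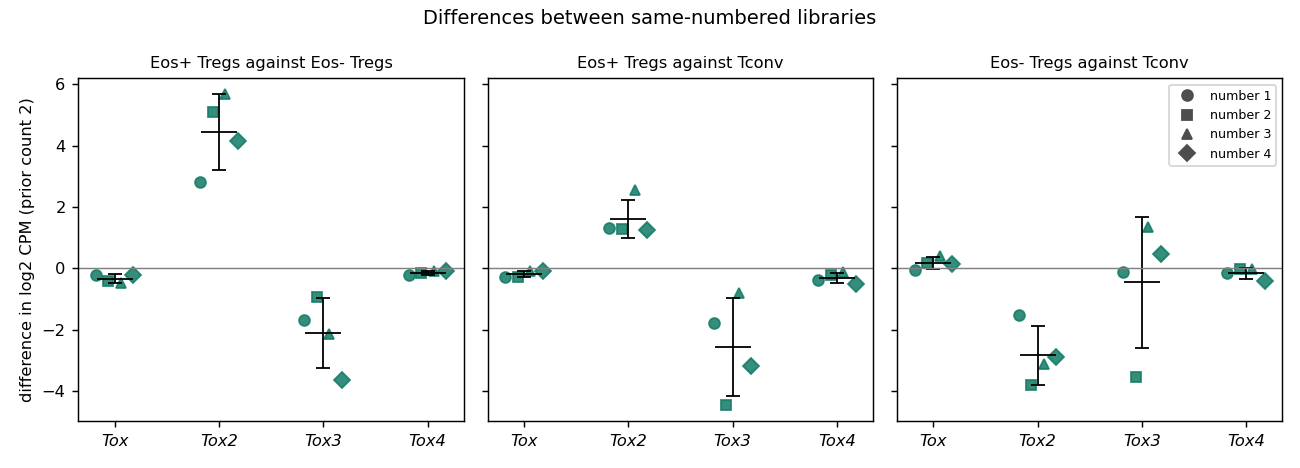
Differences in log2 CPM (prior count 2) between libraries of the same number for each Tox family gene, in 3 panels for the 3 comparisons, with 1 point per number and a bar with whiskers for the mean and SD of the 4 numbers. Tox2 was above 0 in all 4 numbers in both Eos+ Treg comparisons and below 0 in all 4 for Eos- Tregs against Tconv, while Tox and Tox4 stayed within 0.52 of 0.

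All 4 members passed the filter on low counts. For Eos+ against Eos- Tregs, the groups did not overlap for Tox2 (higher) and Tox (lower), in a comparison where 12.1% of all genes tested lay higher without overlap and 7.88% lower. For Eos+ Tregs against Tconv they did not overlap for Tox2 (higher) and for Tox3 and Tox4 (lower), where 18.5% of genes lay higher and 14.6% lower without overlap. For Eos- Tregs against Tconv all 4 members overlapped, and 10.5% of genes lay higher and 9.65% lower without overlap. Since these contrasts chose the members, nothing is read from these shares.

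The genes whose pattern over the 12 libraries was most like that of each member were ranked by Pearson's r of log2 CPM among 8909 genes with a mean of at least 10 CPM. The points share 3 groups and 4 library numbers, so r is a description of these libraries. Closest to Tox2 was Tk1, the thymidine kinase of DNA synthesis (r = 0.983, n = 12), followed by Acot7, an acyl-CoA thioesterase (0.974), Lman1, a cargo receptor of the early secretory pathway (0.959), Cdca7l (0.949) and Sdf2l1, an endoplasmic reticulum protein (0.937). Tk1 was 39.3, 30.3, 27.5 and 28.2 CPM in Eos+ Tregs, against 14.9, 5.81, 3.18 and 4.94 in the Eos- Treg libraries, with Tconv at 19.0, 21.8, 13.9 and 15.7. As for Tox2, replicate 1 was the highest of the Eos- Treg libraries and replicate 3 the lowest of the Tconv libraries.

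Closest to Tox were Eps15, an endocytic adaptor (r = 0.912), 9930021J03Rik (0.909), Smc6, a subunit of the SMC5/6 complex (0.904), Arhgap15, a GTPase-activating protein (0.897) and Abcc5, a transporter (0.893). Over the same 12 libraries Tox and Tox2 had r = -0.773, and -0.349 for the deviations from group means. With group means removed, the nearest genes were Acot7 (0.967) and Zdhhc2, a palmitoyltransferase (0.948), for Tox2, and 9930021J03Rik (0.91) and Ttc3, a ubiquitin ligase (0.907), for Tox. Acot7 thus stood among the 5 nearest to Tox2, and 9930021J03Rik among the 5 nearest to Tox, on both measures.

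**Figure D4:**
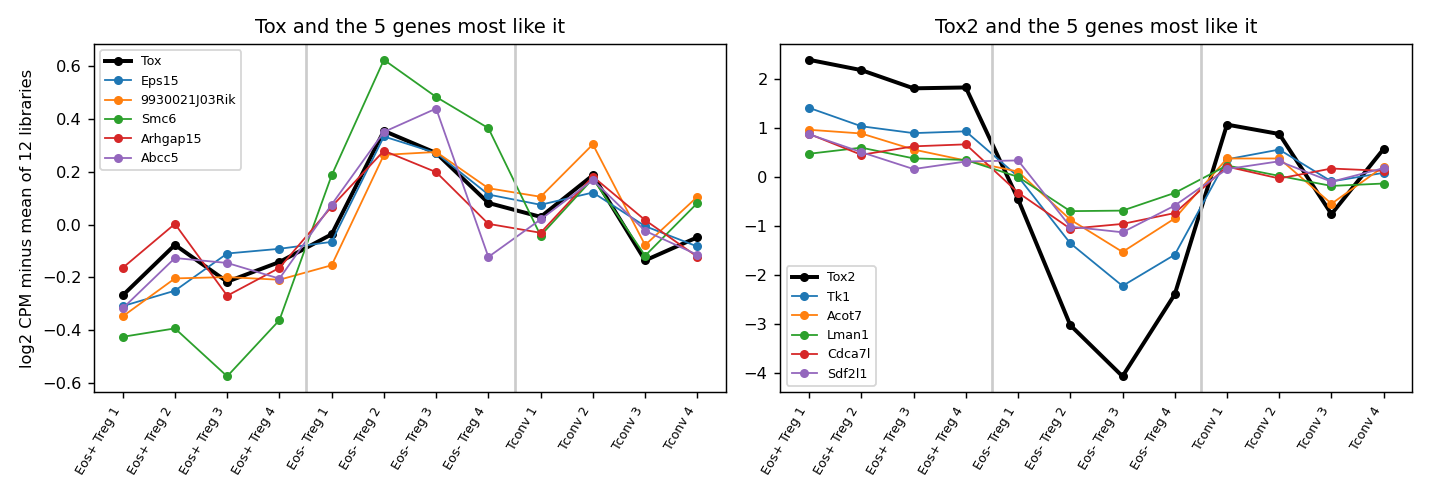
Log2 CPM minus the mean of the 12 libraries (vertical axis) for Tox and Tox2 (black) and the 5 genes with the highest r to each (colours), by library in order of group and number. The genes near Tox2 were lowest in Eos- Tregs, with smaller swings than Tox2 itself, and those near Tox were lowest in Eos+ Tregs.

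Gene lists chosen for the known roles of the family were then counted in the fit across all 15362 genes (edgeR quasi-likelihood test, Benjamini-Hochberg adjusted p under 0.05). Of all genes tested, 9.82% were called higher and 6.46% lower in Eos+ than in Eos- Tregs, 17.3% higher and 13% lower in Eos+ Tregs than in Tconv, and 8.76% higher and 5.88% lower in Eos- Tregs than in Tconv. The median log2 difference of all genes was 0, -0.01 and -0.01. With the replicate number added to the fit as a block, more of all genes were called, 3496 in place of 2501 between the Treg groups. Against Tconv, 5571 in place of 4655 were called for Eos+ Tregs and 3297 in place of 2249 for Eos- Tregs. List counts with the block are to be read against these totals. The lists share members, so their counts are not separate evidence.

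For the role of Tox in CD4 lineage choice, 12 of 22 lineage and positive selection genes fell and 1 rose in Eos+ against Eos- Tregs (median log2 -0.31), 12 fell and 2 rose against Tconv (median -0.45), and in Eos- Tregs 10 fell and 4 rose against Tconv (median -0.14). Satb1, a chromatin organiser of thymocytes, was 415 ± 90.0, 1467 ± 208 and 3122 ± 439 CPM in Eos+ Tregs, Eos- Tregs and Tconv (SD, n = 4), with edgeR adjusted p = 1.88e-05 between the Treg groups. Zbtb7b, which encodes the CD4 lineage factor ThPOK, was 47.1 ± 4.38, 71.2 ± 3.9 and 132 ± 5.61 CPM, lower in Eos+ than in Eos- Tregs (edgeR adjusted p = 0.00038). Both followed the order Tconv, Eos- Tregs, Eos+ Tregs, whereas Tox was highest in Eos- Tregs. Gata3, which acts upstream of ThPOK, was 291 ± 33.7, 302 ± 53.8 and 195 ± 21.5 CPM, higher in both Treg groups than in Tconv (edgeR adjusted p = 0.00469 and 0.00589).

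The calcineurin, NFAT and Nr4a genes stand upstream of Tox in exhausted cells. Without the replicate block, their calls lay near the shares of all genes. Of 16 tested, 2 rose and 0 fell in Eos+ against Eos- Tregs (median log2 -0.03), 3 rose and 3 fell against Tconv (median 0.04), and 1 rose and 1 fell in Eos- Tregs against Tconv (median -0.07). Nr4a2, a nuclear receptor induced by antigen receptor signals, was 33.9 ± 6.87, 17.2 ± 5.1 and 7.95 ± 1.84 CPM and was called in each comparison (edgeR adjusted p = 0.0135, 3.37e-05 and 0.00748). Nfatc1 was 303 ± 11.7 CPM in Eos+ Tregs against 230 ± 3.92 in Eos- Tregs (edgeR adjusted p = 0.00415). Nr4a1 was 284, 469, 475 and 510.3 CPM in Eos+ Tregs, against 433, 693, 692 and 797 in Eos- Tregs. It was lower in Eos+ Tregs in all 4 numbers, by log2 differences of -0.61, -0.56, -0.54 and -0.64, which was not called without the replicate number as a block (edgeR adjusted p = 0.0687) and was called with it (edgeR adjusted p = 0.000795). With the block, 3 members rose and 4 fell between the Treg groups, in place of 2 and 0. Calls over all genes tested also grew, to 2010 higher and 1486 lower from 1509 and 992. Nr4a1 was also called higher in Eos- Tregs than in Tconv with the block (edgeR adjusted p = 0.0138, against 0.254 without the block). Between the Treg groups 6 members were called with DESeq2 and 5 without all libraries numbered 1, without replicate 1 of Eos- Tregs or without replicate 4 of Eos+ Tregs.

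Of 23 tested genes of the exhausted T cell program, 14 rose and 0 fell in Eos+ against Eos- Tregs (median log2 0.99), 15 rose and 3 fell against Tconv (median 1.66), and 7 rose and 4 fell in Eos- Tregs against Tconv (median 0.44). Tigit, an inhibitory receptor, was 43.5, 57.2, 47.2 and 41.0 CPM in Eos+ Tregs, against 4.15, 1.65, 1.8 and 2.96 in the Eos- Treg libraries and 0.542 ± 0.434 in Tconv. Its groups did not overlap, with edgeR adjusted p = 4.38e-05 between the Treg groups. Pdcd1, which encodes PD-1, was 296 ± 121, 99.5 ± 18.6 and 49.4 ± 7.5 CPM (edgeR adjusted p = 0.000764 between the Treg groups). Several of these genes, such as Ctla4 at 424 ± 64.4, 286 ± 70.0 and 14.3 ± 4.28 CPM, are also part of the Treg program. The rise of Ctla4 against Tconv was called in both Treg groups (edgeR adjusted p = 5.64e-08 and 4.09e-07), and its difference between them, higher in Eos+ Tregs in all 4 numbers, was not (edgeR adjusted p = 0.0966), though it was with the replicate block (edgeR adjusted p = 0.00414). Tbx21, which encodes T-bet, and Gzmb, which encodes granzyme B, fell in Eos+ Tregs against Tconv (edgeR adjusted p = 0.0106 and 0.0109).

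Of 21 tested follicular helper genes, the setting in which Tox2 is best known, 11 rose and 2 fell in Eos+ against Eos- Tregs (median log2 0.67), 11 rose and 3 fell against Tconv (median 0.5), and 7 rose and 4 fell in Eos- Tregs against Tconv (median -0.01). With the replicate block, 11 rose and 5 fell in Eos+ Tregs against Tconv, and 7 rose and 9 fell in Eos- Tregs against Tconv. In that last comparison calls over all genes also grew, to 1735 higher and 1562 lower from 1345 and 904. Cxcr5, the chemokine receptor of B cell follicles, was 99.0, 63.8, 63.6 and 54.3 CPM in Eos+ Tregs, against 5.46 to 10.1 in Eos- Tregs, with Tconv at 0.497 to 4.71. The groups did not overlap, and Cxcr5 rose between the Treg groups with edgeR adjusted p = 0.000499, though its exons overlap those of another gene. Maf, a transcription factor of follicular helper and effector cells, was 29.9 ± 6.17, 4.78 ± 1.97 and 4.79 ± 2.54 CPM (edgeR adjusted p = 0.000526 between the Treg groups). Bcl6, which acts with Tox2 in follicular helper cells, was 40.8 ± 5.84 CPM in Eos+ Tregs and 41.1 ± 8.95 in the other Treg group (edgeR adjusted p = 0.982), so that it did not share the Tox2 pattern. For Tox2 the order was Eos+ Tregs, Tconv, Eos- Tregs, while Cxcr5 and Tigit were lowest in Tconv.

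Among other genes with an HMG box, more fell than rose in Eos+ Tregs. Of 22 tested, 6 fell and 2 rose in Eos+ against Eos- Tregs (median log2 -0.13), 8 fell and 2 rose against Tconv (median -0.24), and 3 fell and 3 rose in Eos- Tregs against Tconv (median -0.14). That last count was 10 called members with the replicate block, in place of 6. Over all genes, calls in that comparison also grew with the block, from 2249 to 3297. The first count, 8, was 5 without replicate 1 or 2 of Eos+ Tregs or replicate 3 or 4 of Eos- Tregs. It was also 5 with only the 2 groups in the fit. Lef1, whose exons overlap an antisense gene, was 303 ± 36.4, 668 ± 88.0 and 1183 ± 115 CPM (edgeR adjusted p = 4.55e-05 between the Treg groups). Sox4 was 70.7 ± 21.7, 175 ± 35.2 and 260.5 ± 43.8 CPM (edgeR adjusted p = 0.00104). Tcf7, which encodes TCF-1, was 771 ± 68.9, 898 ± 132 and 1789.8 ± 48.6 CPM, lower in both Treg groups than in Tconv (edgeR adjusted p = 2.72e-06 and 4.51e-05) and not called between them (edgeR adjusted p = 0.181). These 3 transcription factors of thymocytes and naive T cells had their highest mean in Tconv, an order that neither Tox nor Tox2 had.

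The partners of Tox4 in the phosphatase complex, 5 genes, are too few to set their calls apart from the shares of all genes. Between the Treg groups edgeR called 0 of 5 (1 with an unadjusted p under 0.05, 0 with DESeq2, 1, Ppp1cb, lower in Eos+ Tregs with the replicate block at an adjusted p of 0.0165, and 1 when replicate 1 of Eos- Tregs was left out), and 1 of 5, Ppp1cb, was called lower in each Treg group than in Tconv. In these comparisons 2 were called with the block and with DESeq2. For Eos+ Tregs that was also so when their replicate 2 was left out, and for Eos- Tregs with only the 2 groups in the fit. The Ppp1cb call was lost for Eos- Tregs without Tconv replicate 2 or 4 (edgeR adjusted p = 0.0529 to 0.0577). The median log2 differences were -0.12, -0.11 and -0.08. Ppp1r10, which encodes PNUTS, was 82.2 ± 9.44, 74.9 ± 6.13 and 82.3 ± 10.7 CPM and Wdr82 128 ± 39.0, 147 ± 22.9 and 98.7 ± 2.28 CPM, neither of them called in any comparison without the block, with which Wdr82 was called higher in Eos- Tregs than in Tconv (edgeR adjusted p = 0.0192). Ppp1cb, a catalytic subunit, was 190.4 ± 13.0, 226 ± 20.3 and 299.8 ± 36.1 CPM, in the same order of groups as Tox4.

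Kat7, the acetyltransferase with which Tox is known to act in exhausted CD8 T cells, was 165 ± 4.14, 161 ± 8.56 and 132 ± 8.47 CPM in the same order of groups. It rose in both Treg groups against Tconv (edgeR adjusted p = 0.00318 and 0.012), while Tox overlapped between Tconv and each Treg group. Of its 10 complex genes, 1 rose and 1 fell between the Treg groups (median log2 -0.03, with 4 called under the replicate block or DESeq2 and 1 without replicate 1, 2 or 4 of Eos+ Tregs or replicate 2 or 3 of Eos- Tregs), 2 rose and 1 fell in Eos+ Tregs against Tconv (median 0.02), and 2 rose and 0 fell in Eos- Tregs against Tconv (median -0.02, with 1 called without any 1 of 6 libraries, all but Eos- Treg replicate 1 and Tconv replicate 4).

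Of 22 thymocyte maturation and egress genes, 7 fell and 3 rose in Eos+ against Eos- Tregs (median log2 -0.34), 5 fell and 5 rose against Tconv (median 0.03), and 7 fell and 10 rose in Eos- Tregs against Tconv (median 0.1). S1pr1, the receptor for exit from the thymus, was 343 ± 75.2, 713 ± 50.8 and 319 ± 34.2 CPM, highest in Eos- Tregs as Tox was (edgeR adjusted p = 0.000344 between the Treg groups and 0.000166 for Eos- Tregs against Tconv). Cd24a, a marker of immature thymocytes, was 13.5 ± 5.22, 22.0 ± 2.93 and 43.3 ± 5.94 CPM and was lower in both Treg groups than in Tconv (edgeR adjusted p = 0.000141 and 0.013).

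**Figure D5:**
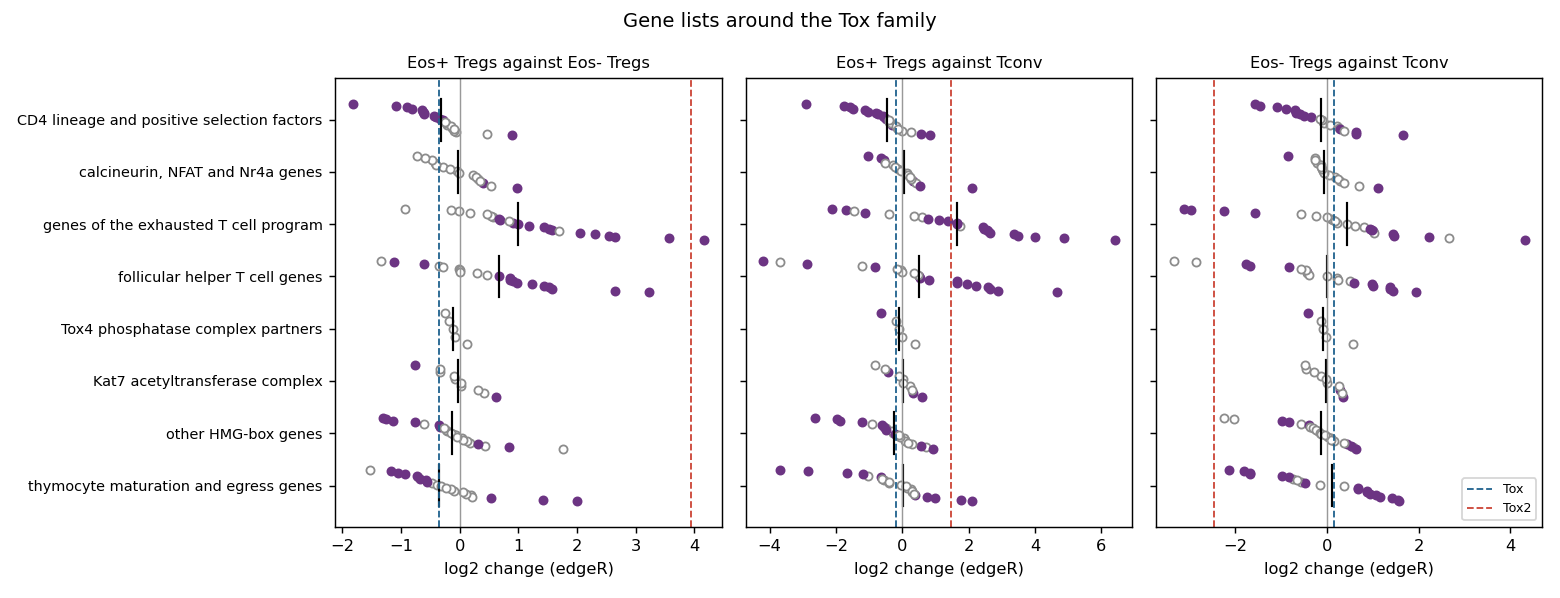
Fitted log2 differences of the genes of 8 lists (horizontal axes differ between the 3 comparisons), with filled points called at an adjusted p under 0.05, open points not called, and a black bar at each list's median. Dashed lines mark Tox and Tox2; the medians of the exhausted program list were 0.99, 1.66 and 0.44 and those of the CD4 lineage list -0.31, -0.45 and -0.14.

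Markers of other cells moved with Tox2 in part. The summed level of 16 B cell markers was 1833 to 2918, 264 to 964 and 412 to 947 CPM in Eos+ Tregs, Eos- Tregs and Tconv, and of the 15 tested, 5 rose and 0 fell between the Treg groups. Pax5, a defining B cell factor, averaged under 1 CPM in every group, and the immunoglobulin gene Ighm was 1330 to 1656 CPM in Eos+ Tregs. Within Eos- Tregs, replicate 1, the library with the most Tox2, had the highest sums for B cells (964 CPM, 264 to 413 in the others), for 14 CD8, NK and cytotoxic markers (306, 81.5 to 149), for 18 dendritic cell and macrophage markers (205, 97.2 to 156) and for 17 double-positive thymocyte markers (1306, 799 to 1061). That library had the lowest sum for epithelial and stromal markers (234, 276 to 338 in the others). For innate lymphoid markers its sum, 1745 CPM, was below the 1788 CPM of replicate 4. In Eos+ Tregs and Tconv, too, replicate 1 had the most Tox2 and the highest B cell sum (2918 and 947 CPM). Double-positive thymocyte markers summed to 762 to 1111 CPM in Eos+ Tregs and 1025 to 1447 in Tconv, with 0 higher and 2 lower of 17 between the Treg groups. Rag1, a recombinase of developing lymphocytes, was 28.0, 6.14, 1.17 and 1.5 CPM in Eos+ Tregs, against 35.6, 15.6, 0 and 0.0574 in the Eos- Treg libraries, with Tconv at 26.0, 44.4, 1.71 and 3.5. The libraries numbered 1 and 2, in which Rag1 was higher in each group, were also those with more Tox2 in Eos+ Tregs and Tconv, whereas in Eos- Tregs number 4 had more Tox2 than number 2.

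Sums of the remaining marker lists varied between groups as well. Between the Treg groups, of the tested CD8, NK and cytotoxic markers 2 of 13 rose, with sums of 200.4 to 344 CPM in Eos+ Tregs and 263 to 591 in Tconv. Of 16 tested dendritic cell and macrophage markers 3 rose, with sums of 174 to 264 CPM in Eos+ Tregs and 94.3 to 149.8 in Tconv. Innate lymphoid markers, which include Ltb, Gata3 and Il7r of T cells, summed to 2275 to 2823, 1681 to 1788 and 1197 to 1491 CPM, with 5 of 11 higher and 0 lower between the Treg groups. These 5 were Ltb, Il7r, Tnfsf11, Il23r and Il1rl1. Il23r, a cytokine receptor gene, was 3.1 ± 0.893 CPM in Eos+ Tregs, 0 in each Eos- Treg library and 0.236 ± 0.403 CPM in Tconv (edgeR adjusted p = 0.00475 between the Treg groups). Il1rl1, which encodes the interleukin-33 receptor ST2, was 36.8 ± 15.9, 3.68 ± 4.95 and 0.257 ± 0.228 CPM (edgeR adjusted p = 0.0395), highest in Eos+ Tregs as Tox2 was but lowest in Tconv. Il22 was at 0 in Eos+ Tregs and Il17a at 0 in Eos- Tregs. Epithelial and stromal markers summed to 137 to 192, 234 to 338 and 199.5 to 224 CPM, with 2 of 7 higher and 1 lower between the Treg groups. Most of each sum was Pecam1, an endothelial adhesion molecule also found on leukocytes, at 136, 268 and 204 CPM and lower in Eos+ than in Eos- Tregs (edgeR adjusted p = 0.000829). Without Pecam1 the other 13 markers summed to 23.5 to 40.3, 11.5 to 17.7 and 6.67 to 12.3 CPM, highest in Eos+ Tregs. Most of what remained was Epcam, an epithelial marker, at 30.4 ± 6.75 CPM in Eos+ against 12.7 ± 2.35 in Eos- Tregs (edgeR adjusted p = 0.000652). Aire was also higher in Eos+ Tregs, at 1.58 ± 0.822 against 0.0245 ± 0.0327 CPM (edgeR adjusted p = 0.0298). Foxn1, Krt5, Col3a1 and Pdgfra were at 0 in Eos- Tregs and Tconv, and Krt14 and Psmb11 at 0 in Eos- Tregs. In Eos+ Tregs none of these genes at 0 elsewhere averaged over 0.285 CPM, and Cdh5 was at 0. The part of any of these cells in the Tox2 differences was not tested.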

How the data were processed

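The authors deposited expected counts per gene from RSEM, not scaled for depth or length. The submitters' processing notes name mm10 with RSEM 1.3.1, cutadapt 1.18 and STAR 2.7.0f; their settings are not given in the sources used here. Positions and lengths came from GENCODE M21, which held each of the 55450 gene IDs. Expected counts were rounded and fitted in R 4.3.3 with edgeR 4.0.16 (TMM, filterByExpr, quasi-likelihood F test, two-sided, 1 mean per group over 12 libraries, 15362 genes tested, Benjamini-Hochberg threshold 0.05); the fit was tested on simulated data. CPM use TMM-scaled totals, and TPM were computed here. Same-numbered libraries deviated from group means together (r = 0.138 to 0.318 in every pair, against -0.226 to 0.07 for other numbers), and library names share an identifier per number, so the number was tried as a block. Exons of 8 of 51 genes taken for naming, Foxp3, Zbtb7b, Satb1, Ppp3r1, Cxcr5, Ppp1ca, Ing4 and Lef1, overlap a gene of at least 5 CPM, so their values are less certain.

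The members and the lists were chosen with earlier results of these data known. Genes to name were the 4 members, the 5 genes nearest to Tox and to Tox2, genes of the sort, stated role genes, and per list and comparison the 3 called members of at least 10 CPM with the largest change; only some are named. Tbx21 and single marker genes of other cells are named outside this rule, after their values were seen. Alternatives were median-ratio size factors, no filter, DESeq2 1.42.0, limma-voom (limma 3.58.1), the block, no libraries numbered 1, only the groups compared, each library left out, and other prior counts for r. Reads lack molecular identifiers, so limits from counts cover counting error only.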

Additional observations from a re-analysis of the deposited data

Results flagged for a closer look

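Tox2 moved in opposite directions against Tconv, with log2 differences of 1.48 in Eos+ Tregs and -2.47 in Eos- Tregs. In each of the 4 library numbers Eos+ Tregs were higher and Eos- Tregs lower. Both share the Tconv libraries, and the difference between these 2 differences was not tested, since it chose the member.

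Among 165 gene and group sets of 4 libraries, 9 had a library far from the other 3 by Dixon's criterion, where chance gives about 1 in 20. Eos- Treg replicate 1 was the highest of its group for Id2 (141 CPM) and Ccr4 (20 CPM) and the lowest for Ppp3r1 (98.2 CPM). Eos- Treg replicate 2 was the lowest for Ppp1cc (396 CPM) and the highest for Sox4 (228 CPM). In Eos+ Tregs, replicate 1 was the lowest for Havcr2 (5.83 CPM) and the highest for Il7r (478 CPM), replicate 2 the lowest for Ikzf1 (96.2 CPM) and replicate 4 the highest for Ppp3r1 (124 CPM). None of these sets was that of a Tox family member.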

How the results depend on the processing

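The direction of each member's difference was the same under all 7 alternatives other than leaving out a library (6 for Tox3 in Eos+ Tregs, which has no value in the fit of only the 2 groups compared). Leaving out 1 library at a time, the Tox2 log2 difference between Eos+ and Eos- Tregs ranged from 3.61 to 5.04, the highest without Eos- Treg replicate 1, and that of Tox from -0.42 to -0.29. The Tox3 difference between Eos- Tregs and Tconv ranged from -0.65 to 0.19, its sign changing without Tconv replicate 2. Over all genes, 2501, 4655 and 2249 were called in the 3 comparisons, and 3496, 5571 and 3297 with the replicate block, under which 0 of 99 calls of named genes was lost. Under the alternatives 20 of these 99 calls were lost at least once and 0 turned. Among the calls named in the text, those lost were Ppp1cb for Eos- Tregs against Tconv and Il7r between the Treg groups. The cause of these losses was not tested. The 99 calls do not cover Tbx21, Ltb, Tnfsf11, Il23r, Il1rl1, Epcam, Aire and Pecam1, whose calls under the alternatives are not given here. Tox3 is limited by depth, at 8 counts in Eos+ Tregs, and Tox4 by sequence shared with genes on the other strand and with the pseudogene Gm5828.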
